A study of Mus musculus with 6 samples.

Results

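The regions described here are 308 long noncoding loci that the deposited expression table types as Tbx5-dependent and that lie close to each other on the chromosomes. A locus was included if its interval measured at least 1000 bp and its start lay in a fixed 1-Mb bin holding at least 5 Tbx5-dependent loci of any length. The rule used position, length and type, and no expression value. It took 308 of 849 Tbx5-dependent loci and of 28660 loci in all, spread over 30 bins on 16 chromosomes. These 30 bins are called runs below. Each is named after its nearest gene, meaning the protein-coding gene nearest to the largest number of its loci. Another gene can lie closer to a single locus, as Prdx6 does at 4942 bp from XLOC_003217 in the run named after Tnfsf18. Pde3a is the nearest gene for a pair of runs that only the bin edge at 141 Mb of chromosome 6 separates. The first ends at 141045305 and the second begins at 141053029. The 3 whose nearest gene has no value in the table go by their chromosome.

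RNA came from nuclei of HL-1 cells, an established line of beating mouse atrial cardiomyocytes derived from a tumour lineage, grown in Claycomb medium with norepinephrine. Each nuclear preparation was separated into a chromatin pellet and a soluble extract, and 3 libraries were made of either fraction, 6 in all, which the labels call biological replicates. The groups share cell line, medium and genotype, and differ only in nuclear fraction. No library with altered Tbx5 is among them, so the dependence on Tbx5 is a label of the table and was not measured here. The labels do not say how these loci were selected, nor whether the present libraries took part in it.

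The table gives 1 FPKM value per fraction and locus (fragments scaled to transcript length and to library size), standing for the 3 libraries together. The spread between replicates is therefore unknown, no test was possible, and sequencing depth is unknown too. Every fold below is a log2 of pellet FPKM, multiplied by a spike-in factor of 3.37, over soluble FPKM (the spike-in scale). Without that factor (the FPKM scale) each log2 value is lower by 1.75. Loci that differed at least 2-fold were called, as higher or as lower.

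The scatter of the ERCC spike-ins, synthetic RNAs added to each fraction, is the only error the table holds. Their log2 ratios had an SD of 0.12 where the mean of both fractions reached 0.5 FPKM (n = 47). The SD was 0.37 for 16 spike-ins from 0.05 up to 0.5 FPKM and 0.85 for the 19 below that. In the lowest class 5 spike-ins missed the common factor by at least 2-fold. Cardiomyocyte markers were present, with 8 measured genes between 4.67 and 1119 FPKM in the soluble fraction. Of 10 measured markers of other cell types 6 were below 1 FPKM. Above it were the smooth muscle actin gene Acta2 at 1539 FPKM, the endothelial Kdr at 5.52, and the fibroblast genes Pdgfra at 3.59 and Dcn at 1.74.

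Tbx5 is a T-box transcription factor that, with Nkx2-5 and Gata factors, sets the gene programme of the atria and the conduction system. Many enhancers and promoters are themselves transcribed into noncoding RNA, which is often short-lived and found at or near its site of synthesis. RNA that stays with chromatin when nuclei are fractionated, called chromatin-enriched RNA, includes nascent transcripts still held by RNA polymerase. A long transcription unit with little signal can be assembled from short reads as a string of separate pieces, so neighbouring loci of a run need not be separate transcripts.

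A few sequences place the loci in the genome. They come from RefSeq windows on GRCm38.p6 that span 250 bases before to 50 after an annotated transcript start. These are starts of annotated genes in or beside the runs, since starts of the unannotated loci themselves are not given. The window shown first is a start of Gm31815, a noncoding RNA of the minus strand. It lies at chr1:161591409-161591708, overlaps XLOC_003338, which had the highest soluble level of all 308 loci, and has 36.0% GC and 0 CpG.
Gm31815: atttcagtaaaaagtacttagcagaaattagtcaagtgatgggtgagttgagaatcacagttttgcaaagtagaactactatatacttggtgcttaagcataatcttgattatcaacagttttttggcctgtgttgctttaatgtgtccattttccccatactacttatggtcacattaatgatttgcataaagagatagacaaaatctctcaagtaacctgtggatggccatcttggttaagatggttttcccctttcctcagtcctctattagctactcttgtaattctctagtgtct

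The window of 1700011B04Rik, a noncoding RNA of the plus strand, lies at chr13:35181373-35181672 inside the interval of XLOC_015128 in the run near Eci2. It is shown because it is the only window inside the loci that holds the T-box motif AGGTGTGA. The motif is on the opposite strand and therefore reads TCACACCT, in capitals, from base 220 of the window.
1700011B04Rik: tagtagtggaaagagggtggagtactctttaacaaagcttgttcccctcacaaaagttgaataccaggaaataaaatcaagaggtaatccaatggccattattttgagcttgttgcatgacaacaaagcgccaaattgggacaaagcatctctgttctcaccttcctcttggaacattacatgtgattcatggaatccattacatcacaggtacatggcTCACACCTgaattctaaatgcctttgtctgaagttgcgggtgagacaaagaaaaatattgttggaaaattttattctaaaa

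The last 2 windows belong to protein-coding genes and show how different the starts beside the runs can be. That of Tmtc1, a mannosyltransferase of the endoplasmic reticulum, lies at chr6:148444303-148444602 on the minus strand, with 72.3% GC and 30 CpG. That of Chrm2, the M2 muscarinic receptor through which acetylcholine slows the heart, lies at chr6:36387834-36388133 on the plus strand, with 52.7% GC and 16 CpG.
Tmtc1: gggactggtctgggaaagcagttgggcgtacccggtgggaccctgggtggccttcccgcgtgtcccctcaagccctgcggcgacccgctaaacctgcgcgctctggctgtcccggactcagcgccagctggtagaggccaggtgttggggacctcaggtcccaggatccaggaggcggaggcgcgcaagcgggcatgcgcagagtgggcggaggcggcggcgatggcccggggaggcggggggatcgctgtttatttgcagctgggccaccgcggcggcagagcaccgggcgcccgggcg
Chrm2: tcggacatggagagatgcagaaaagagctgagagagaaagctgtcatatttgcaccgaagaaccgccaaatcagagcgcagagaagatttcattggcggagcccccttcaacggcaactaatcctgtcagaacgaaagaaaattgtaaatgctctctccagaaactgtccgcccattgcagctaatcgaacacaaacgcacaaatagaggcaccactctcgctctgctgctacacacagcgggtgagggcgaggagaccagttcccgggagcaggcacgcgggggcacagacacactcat

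In all, 38 windows of 34 annotated genes overlapped an interval of these loci. They had a median of 46% GC and 3.5 CpG, against 52.7% and 7 over all 32851 windows. Most belong to noncoding genes, and the windows compared were not matched by kind of gene. Only 10 of the 38 overlapped a locus whose interval no other of these loci shared. The motif AGGTGTGA or its reverse complement was in 1 of the 38 windows, against 1.28% of all windows of this length (419). It was in 0 of 23 windows of 18 genes nearest to the runs, which says only that these letters are not in those windows. The motif search in promoter windows was chosen after the files were seen, and the sequences of the loci themselves were not used here.

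Nearly all of the loci had more RNA in the chromatin pellet than in the soluble extract. On the spike-in scale the pellet exceeded the soluble extract at least 2-fold in 304 of 308 loci (98.7%), 0 were lower and 4 lay within 2-fold. Over all loci of the table the background was 49.8% higher and 8.88% lower. The median fold of the 308 loci was 4.52 on the log2 scale (interquartile range 3.97 to 4.98), which equals 23.0-fold (15.7 to 31.5), against 0.99 for all loci. At least 8-fold higher were 277 loci, and at least 32-fold higher were 75. The median dropped to 2.77 without the spike-in factor, where 285 loci were higher, 3 lower and 20 within 2-fold, against a background of 22.6% higher and 44.6% lower.

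The loci carried little RNA in either fraction. Their mean of both FPKM values had a median of 0.0778, from 0.000695 to 5.80, with medians of 0.0262 FPKM in the soluble fraction and 0.126 FPKM in the pellet. Together they took 0.0202% of the pellet's summed FPKM and 0.00294% of the soluble sum. The fold varied little with level. The 48 loci whose mean reached 0.5 FPKM had a median log2 fold of 4.43, and all 48 were higher in the pellet. The 130 loci between 0.05 and 0.5 FPKM had a median of 4.51 with 129 higher, and the 130 below 0.05 FPKM had 4.55 with 127 higher. The folds of the last class are the least certain, as the spike-ins of that level show.

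Loci of low level lay towards the pellet in general. In the central range of the levels, from 0.0214 to 0.313 FPKM, 153 of 154 of the loci in runs were higher in the pellet, against a background of 63.1% among all 7125 loci of that range, whose median was 1.68.

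**Figure D1:**
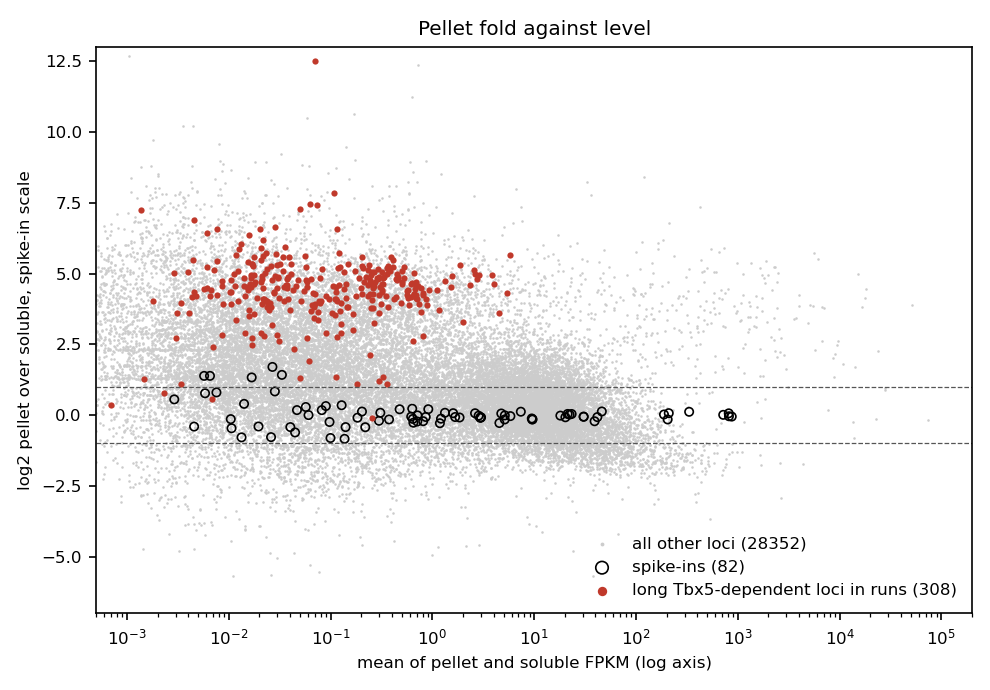
Each point is a locus, with the mean of its pellet and soluble FPKM on a log x axis and its log2 pellet over soluble fold on the spike-in scale on the y axis. Red points are the 308 loci in runs, grey points the other loci (575 of which lie outside the axes), open circles the 82 spike-ins, and dashed lines mark 2-fold. The red points form a band around a median of 4.52 at all levels, while the circles lie around 0 and scatter more at low levels.

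The intervals of the loci are of 2 kinds, and this bears on what the length of a locus means. Where transcripts overlap, the table gives every locus of the group the same merged interval. The 308 loci occupied 218 distinct intervals. An interval of their own, shared with no other locus, belonged to 197 loci. The other 111 stood in a merged interval, 105 of them together with other members and 108 together with an annotated gene. Loci with their own interval had a median length of 2737 bp and at most 47837 bp. Merged intervals gave a median of 106824 bp and up to 578036 bp, so that the length limit says nothing about the individual transcript there.

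Folds were tighter among loci with their own interval. All 197 were higher in the pellet, at a median of 4.64 on the log2 scale (quartiles 4.22 and 5.04, SD 0.89 over loci), and 190 were higher on the FPKM scale. Of the 111 in merged intervals 107 were higher, with a median of 4.11 and an SD of 1.61, and 95 were higher on the FPKM scale. All 4 loci within 2-fold were in merged intervals, as was the largest fold. The labels do not give how fragments were divided among overlapping loci, and the part of this step in these differences was not tested. Among the 197 loci the fold did not follow length, with medians of 4.61 at 1 to 2 kb (n = 74), 4.66 at 2 to 5 kb (n = 63), 4.82 at 5 to 10 kb (n = 36) and 4.54 at 10 kb or more (n = 24).

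Position inside or outside annotated genes, judged by the interval in the table, made little difference. Outside all RefSeq gene spans lay 132 loci, with a median log2 fold of 4.56, and all 132 were higher in the pellet. The 82 loci that overlapped a protein-coding gene had 4.61 with 79 higher, and the 86 that overlapped a long noncoding RNA gene only had 4.44 with 86 higher. The remaining 8 overlapped other kinds of genes. Of the 82 loci, 55 stood in a merged interval with a protein-coding gene. Whether their own transcripts lie inside that gene is not known. The median distance to a protein-coding gene was 29557 bp, and 206 loci lay within 100 kb of such a gene.

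The runs were unequal in size. The 8 with most members held 178 loci. Chromosome 6 alone had 8 runs with 85 loci. Medians of the log2 fold per run lay between 2.63 (near Blk) and 5.87 (a run near Pde3a with 1 member), with a median of 4.42 over the 30 runs. In 8 runs all members, 60 in total, stood in a single merged interval. A nearest gene, as defined above, with a value of its own was present for 27 runs, and the run's median exceeded that gene's fold in 26. The difference had a median of 3.67 on the log2 scale and ranged from -0.46 to 6.18. The nearest genes themselves, 26 in number because Pde3a counts for a pair of runs, had a median of 0.75 with 7 higher in the pellet and 0 lower. Of 29 runs whose bin held protein-coding genes, 22 had a median above every one of them.

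**Figure D2:**
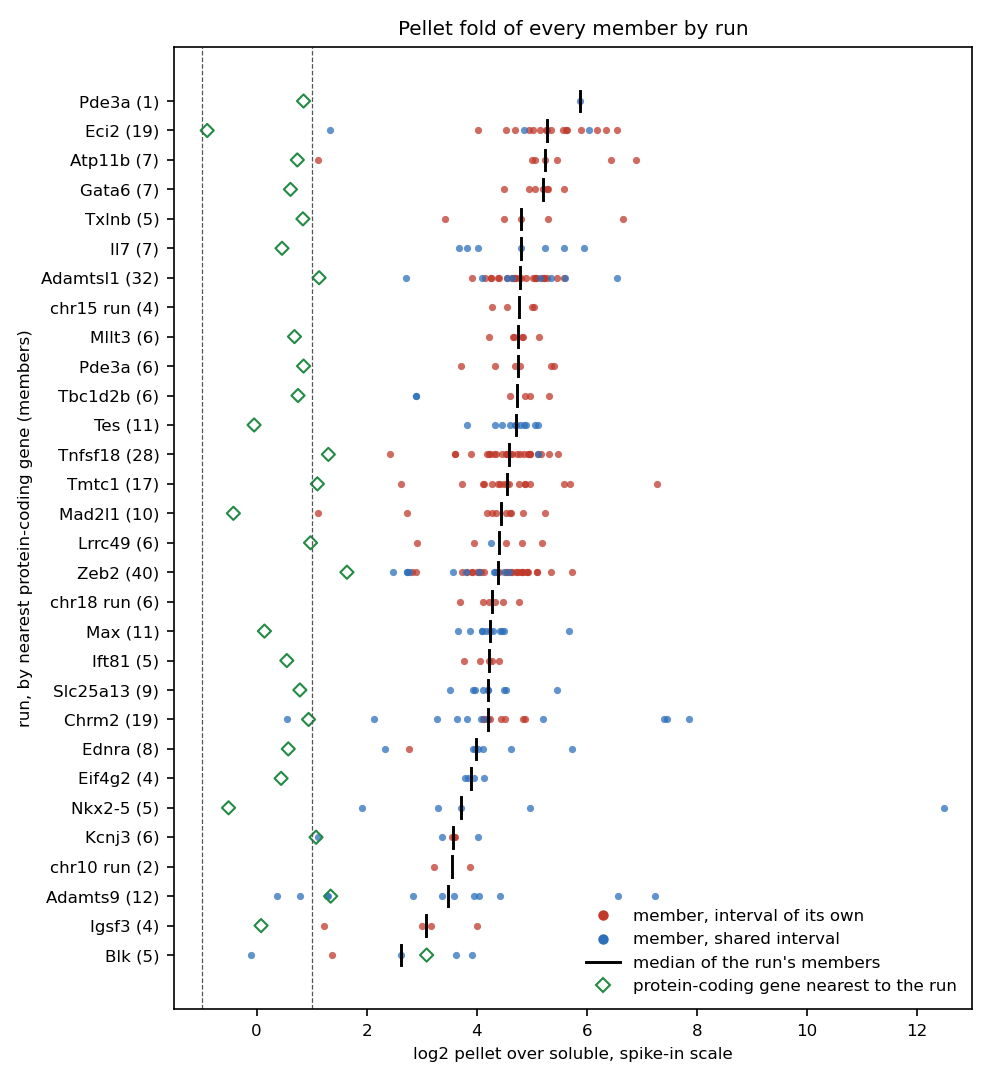
Each row is a run with its number of members, and the x axis is the log2 pellet over soluble fold on the spike-in scale. Red points are loci with an interval of their own, blue points loci in merged intervals, and black bars the median of the run. Green diamonds are the nearest gene as defined above, and dashed lines mark 2-fold. Run medians from 2.63 to 5.87 lie to the right of the diamonds in 26 of 27 runs, the exception being the run near Blk.

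The largest run had 40 loci in 31 intervals and lay upstream of Zeb2, a zinc finger repressor of epithelial genes. It spans chr2:45239244-45547727 and ends 121802 bp from that gene. All 40 loci were higher in the pellet, with a median log2 fold of 4.38. The lowest was XLOC_029124 in a merged interval, with 0.0129 soluble and 0.0212 pellet FPKM, a log2 fold of 2.48. The highest was XLOC_029105 with 0.00277 and 0.0438 FPKM and a log2 fold of 5.74. Pellet levels across the run lay between 0.00397 and 0.134 FPKM. Zeb2 itself had 24.1 soluble and 22.3 pellet FPKM, a log2 fold of 1.64.

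The second run had 32 loci in 25 intervals at chr4:85205126-85989808, and overlaps Adamtsl1, which encodes a secreted matrix glycoprotein. Its median log2 fold was 4.78, against 1.14 for Adamtsl1 (14.6 soluble and 9.50 pellet FPKM). Of these loci 8 share a merged interval of 578036 bp with Sh3gl2, the gene of endophilin A1. These 8 tie as the longest, since the interval sets their length. Among them are XLOC_038481 (0.119 soluble and 0.878 pellet FPKM, log2 fold 4.64), XLOC_038438 (6.56) and XLOC_038435 (4.56). XLOC_038438 had the run's largest fold, and XLOC_038451 in the same interval had its smallest, 2.72. Sh3gl2 had 2.45 soluble and 1.28 pellet FPKM, a log2 fold of 0.81, below all 8.

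The third run had 28 loci in 28 intervals at chr1:161176936-161694557. Its span encloses Tnfsf18, the ligand of the immune receptor GITR, but none of its loci overlaps that gene. The closest, XLOC_003277, lies 11797 bp from it. Tnfsf18 was itself low at 0.538 soluble and 0.394 pellet FPKM (log2 fold 1.30). The run's median log2 fold was 4.58. The lowest fold was that of XLOC_003374 with 0.00538 and 0.00853 FPKM (2.42), and the highest that of XLOC_003380 with 0.000633 and 0.00832 FPKM (5.47). Both lie past the step described next, at very low level, where the spike-ins scatter most.

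Among members whose interval no other member shared, levels changed along the third run far more than the fold did. From XLOC_003256 to XLOC_003347, 15 loci over 156.3 kb, pellet FPKM rose with position from 0.463 to 9.19, which is 19.9-fold. This stretch was picked after its values were seen. Within it the rank correlation with position was 0.99 in the pellet and 0.93 in the soluble fraction, but over all 28 loci of the run it was -0.56 and -0.59, since XLOC_003217 before the stretch had 4.71 pellet FPKM and the loci after it were low. The next locus, XLOC_003352, begins 9.525 kb further on and had 0.0203 FPKM in the pellet, 452.9-fold less. The soluble level fell there by 536.3-fold. The 16 loci before this step had a median of 3.80 pellet FPKM and the 12 after it 0.0105, while their median log2 folds were 4.76 and 4.41. The start of Gm31815 printed above lies within the rising stretch, at XLOC_003338.

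The fourth run had 19 loci in 18 intervals at chr13:35167146-35455832, upstream of Eci2, an enoyl-CoA isomerase of fatty acid oxidation, and 140031 bp from it. Its median log2 fold was 5.28, while Eci2 had -0.90 (29.5 soluble and 4.69 pellet FPKM). The lowest was XLOC_013616 in a merged interval, with 0.374 soluble and 0.279 pellet FPKM (1.33). The highest was XLOC_015153, with 0.00141 and 0.0393 FPKM (6.56). XLOC_015128, which holds the start of 1700011B04Rik with the T-box motif, had 0.00127 and 0.0248 FPKM, a log2 fold of 6.05. It shares its interval with the annotated RP24-80P7.2, at 3.76.

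The fifth run had 19 loci in 10 intervals at chr6:36176694-36670499 around Chrm2. Its median log2 fold was 4.20, against 0.94 for Chrm2 with 31.4 soluble and 17.9 pellet FPKM. In the merged interval of 318795 bp that holds Chrm2 stood 10 of the loci, of which 9 had a larger fold than the gene. That interval held both extremes of the run. XLOC_046903 had 0.00952 soluble and 0.00415 pellet FPKM (log2 fold 0.55), and XLOC_046876 had 0.00312 and 0.215 FPKM (7.86).

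The sixth run had 17 loci in 17 intervals at chr6:148447494-148556570 and begins 2724 bp upstream of Tmtc1. Its loci covered 95.5% of its 109.1 kb, with a median gap of 148 bp. The median log2 fold was 4.55, against 1.10 for Tmtc1 (6.94 soluble and 4.42 pellet FPKM). XLOC_048379, nearest to Tmtc1, had the smallest fold, 2.63, with 0.0218 soluble and 0.0401 pellet FPKM. XLOC_048396 towards the far end had the largest, 7.27, with 0.00212 and 0.0968 FPKM. Pellet levels stayed within a narrow band, from 0.0401 to 0.119 FPKM, while soluble levels went from 0.00212 to 0.0218.

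The next 3 runs each stood in 1 merged interval, so that their members share coordinates. The 12 loci around Adamts9, a secreted metalloprotease of the matrix, at chr6:92772699-93275614 had pellet values from 0.000385 to 0.0424 FPKM. Their log2 folds went from 0.37 to 7.23 with a median of 3.48, and 8 of 12 were above Adamts9 itself at 1.35. The 11 loci upstream of Max, the dimerisation partner of Myc, at chr12:76972460-77022609 had log2 folds from 3.66 to 5.67 (median 4.25), against 0.14 for Max. As many loci stood around Tes, which encodes testin of focal adhesions, at chr6:17065010-17171833. Their folds went from 3.82 to 5.11 (median 4.71), against -0.05 for Tes.

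In 6 merged intervals an annotated protein-coding gene stood beside the loci (Il7, Sh3gl2, Tes, Chrm2, Adamts9 and Ednra). They held 55 loci, and 50 had a larger pellet fold than the gene whose interval they shared. The annotated genes were higher in level: Chrm2, for instance, had 17.9 pellet FPKM, while the 10 loci in its interval had at most 0.394. The table gives no strand for the loci, and whether they are sense or antisense to these genes was not determined here.

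Among loci whose interval no other member shared, neighbours resembled each other in level. The 105 loci that shared an interval with other members were left out, so a pair can span a merged interval. Pellet levels of loci left out went from 0.00415 to 0.394 FPKM in the interval of Chrm2 and from 0.195 to 0.597 FPKM in that of Tes. The 180 pairs had a median gap of 908.5 bp, with 61 pairs at most 200 bp apart, 96 at most 1 kb apart and 24 more than 10 kb apart. The median step between neighbours was 0.34 in log2 pellet FPKM, 0.62 in log2 soluble FPKM and 0.45 in log2 fold. A step of at least 2-fold occurred in 16 pairs for the pellet, in 49 for the soluble fraction and in 42 for the fold. Differences between runs made up 60.2% of the variance of log2 pellet FPKM among the 308 loci, 54.3% of that of log2 soluble FPKM and 21.6% of that of the log2 fold. Over all 308 loci the SD was 2.57 for log2 pellet FPKM and 1.21 for the log2 fold, so runs differed more in how much RNA they gave than in how it was divided between the fractions.

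Levels followed position in some runs, again among loci whose interval no other member shared. In the run at Adamtsl1 the pellet FPKM fell from 1.15 at XLOC_038482 to 0.518 at XLOC_038529 over 206.5 kb, and the soluble FPKM from 0.219 to 0.0628. Rank correlations with position there were -0.78 for the pellet, -0.87 for the soluble fraction and 0.82 for the fold (n = 24 loci). The corresponding pellet value was -0.76 in the run near Zeb2 (n = 30) and -0.88 in that around Chrm2 (n = 9). The loci used around Chrm2 stand on both sides of a gap of 393208 bp. It was 0.58 in the run near Tmtc1 (n = 17), where the soluble value was -0.29, and 0.09 in that near Eci2 (n = 17). The runs at Tnfsf18 (n = 28) and Mad2l1 (n = 10) had -0.56 and -0.26. For the fold, the runs other than that at Adamtsl1 had values from -0.35 to 0.42. These correlations across loci of the same libraries are descriptions and carry no p-value.

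**Figure D3:**
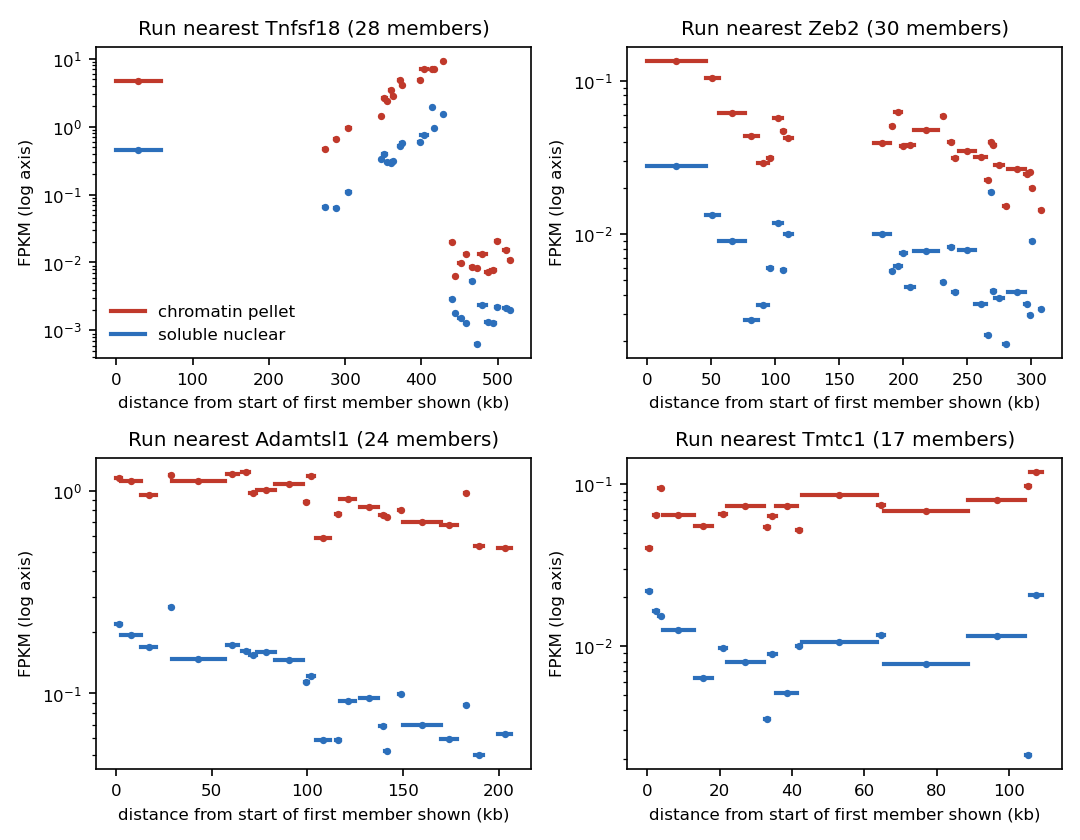
Each bar is a locus whose interval no other locus of the run shares, drawn from its start to its end in kb from the first such locus, with FPKM on a log y axis, red for the pellet and blue for the soluble fraction, and a point at its centre. In the run at Tnfsf18 both fractions rise to 9.19 pellet FPKM and then drop by 452.9-fold in the pellet. In the run at Adamtsl1 both fall along the chromosome, and in the run near Tmtc1 the pellet stays between 0.0401 and 0.119 FPKM.

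The loci with the most RNA were XLOC_011680 in the merged interval near Max and 4 loci on chromosome 1. XLOC_011680 had 0.721 soluble and 10.9 pellet FPKM, and its log2 fold of 5.67 was also the largest among the 48 loci whose mean reached 0.5 FPKM. XLOC_003347 had 1.56 and 9.19 FPKM (log2 fold 4.31), and XLOC_003338 had 1.97 and 7.10 FPKM (3.60). XLOC_003340 had 0.948 and 7.02 FPKM (4.64), and XLOC_003331 had 0.765 and 6.98 FPKM (4.95). The pellet exceeded the soluble value in all 5 on the FPKM scale too, by log2 values from 1.85 to 3.92.

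The next largest folds at this level were XLOC_003303 with 5.31, XLOC_038522 with 5.22, XLOC_003217 with 5.12 and XLOC_038508 with 5.07, on chromosomes 1 and 4. The smallest were XLOC_016874 near Blk, with 0.455 soluble and 0.834 pellet FPKM (2.63), and XLOC_053537 in the run at Ednra, with 0.535 and 1.09 FPKM (2.78). XLOC_022946 near Nkx2-5 had 3.29, XLOC_003338 had 3.60 and XLOC_011674 near Max had 3.66. At the length limit, XLOC_048381 (1006 bp) and XLOC_003338 (1021 bp) lay just inside, with log2 folds of 4.38 and 3.60. XLOC_047253 (986 bp) and XLOC_040347 (974 bp) lay just outside, with 5.63 and 4.95.

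Named after their values were seen, the 4 loci within 2-fold were XLOC_016881 near Blk, XLOC_046903 around Chrm2, and XLOC_045813 and XLOC_045814 around Adamts9. XLOC_016881 had 0.398 soluble and 0.110 pellet FPKM, a log2 fold of -0.11 and the lowest of the 308. The other 3 were below 0.01 FPKM in both fractions, with 0.55, 0.37 and 0.80. The largest fold, 12.50, belonged to XLOC_022932 near Nkx2-5, whose soluble value was 8.18e-05 FPKM against 0.140 in the pellet. A soluble value that close to 0 makes the size of this fold uncertain.

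A list of 49 genes bound or regulated by Tbx5 or acting in atrial and conduction identity was set beside the runs, of which 42 had values. Their own median log2 fold was 0.46, with 9 higher and 5 lower in the pellet, and on the FPKM scale -1.30, with 27 lower and 0 higher. Within 100 kb of a locus in a run lay 4 of the 42 (9.52%), namely Gata4, Gata6, Kcnj3 and Nkx2-5. Over all 16352 measured protein-coding genes the count was 59 (0.361%). Long isolated Tbx5-dependent loci had 5 of the 42 within the same distance. The share of all protein-coding genes near isolated loci was not computed, so the 5 cannot be set against the 4. List genes without a value in the table were not analysed here. The list was drawn from genes known in connection with Tbx5, and the table's type ties the loci to Tbx5 as well, so the count is a description of neighbourhood.

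Near Nkx2-5, the homeobox factor of the early heart, 5 loci shared an interval that begins 15299 bp from the gene. Their pellet values were 0.0655, 2.98, 1.83, 5.14 and 0.140 FPKM, with log2 folds of 1.92, 3.29, 3.71, 4.96 and 12.50. All 5 were above Nkx2-5, which lay towards the soluble fraction at -0.51 with 65.0 soluble and 13.5 pellet FPKM.

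Near Gata6, a zinc finger factor of heart and endoderm, 7 loci with intervals of their own spanned 76.9 kb, and the nearest, XLOC_026363, lay 50562 bp from the gene. Their log2 folds lay between 4.50 and 5.59, with pellet levels from 0.345 to 0.653 FPKM. Gata6 had 18.1 soluble and 8.21 pellet FPKM, a log2 fold of 0.62. The loci of this run thus lay within a narrow range and did not overlap with the gene's value.

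At Kcnj3, a subunit of the atrial potassium channel opened by acetylcholine, 3 loci shared an interval over the first part of the gene's RefSeq span. They had log2 folds of 1.11, 3.38 and 4.02. The window of the annotated Kcnj3 start, at chr2:55435720-55436019, lies past that interval, which ends at 55433435. The other 3 loci, just past the end of the gene, had 3.59, 3.60 and 3.55. Kcnj3 had 4.71 soluble and 2.96 pellet FPKM (1.08), close to the lowest of its loci, XLOC_032086.

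Gata4, the cardiac zinc finger factor, lay 45997 bp from the run that is nearest to Blk, a B-cell kinase. The 5 loci there had log2 folds of -0.11, 1.36, 2.63, 3.62 and 3.92, the lowest median of the runs at 2.63. Gata4 had 77.5 soluble and 35.3 pellet FPKM (0.62). Blk, at 0.0111 and 0.0279 FPKM, had 3.09, and this was the run whose median fell below its nearest gene.

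Set beside related loci, those in runs had the largest median fold. Long Tbx5-dependent loci outside such bins (n = 279) had a median log2 fold of 3.68 with 91.4% higher in the pellet, which is 0.84 below the loci in runs. Among loci whose mean reached 0.5 FPKM this difference was 0.34. Their interquartile range was 1.77 wide, against 1.01. Short Tbx5-dependent loci, under 1000 bp, had 4.07 in bins with at least 5 loci (n = 67) and 3.26 elsewhere (n = 195). The short loci thus differed by 0.82 between such bins and elsewhere, and long loci exceeded short ones by 0.45 in the bins and by 0.43 elsewhere. With 1 value per fraction none of these differences could be tested. Long loci of the 17 bins with exactly 4 Tbx5-dependent loci, just outside the rule, had a median of 4.06 (n = 45), and members of the 4 bins with exactly 5 had 3.62 (n = 15).

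As a group, the other loci of the same bins did not share the pellet fold to this degree. Their median was 1.19 (n = 368), with 54.6% higher, so that the loci in runs exceeded it by 3.33. Protein-coding genes of these bins had 0.62 (n = 217), close to 0.55 for all protein-coding genes. Annotated noncoding loci of the bins had 2.43 (n = 98). Single annotated loci in the same merged intervals could come close to the loci in runs. The highest annotated fold of an interval went from -1.43 (Gm27276, beside a locus at 4.03) to 5.58 (RP24-338D12.1, beside 5.87). RP23-352D5.1, at 4.52, was above the 4.18 of the locus in its interval. Across the table, long intergenic RNAs had 2.35, antisense RNAs 2.15, loci of the type TEC (loci awaiting experimental evidence) 3.49 and sense intronic RNAs 3.80. The level differs between some of these classes. Against a median pellet value of 0.126 FPKM for the loci in runs, protein-coding genes of the bins had 2.90 and annotated noncoding loci of the bins 0.0753. Loci of the type TEC had 0.117, sense intronic RNAs 0.267, antisense RNAs 0.0414 and long intergenic RNAs 0.0366 FPKM. The part of level in the differences was not tested.

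**Figure D4:**
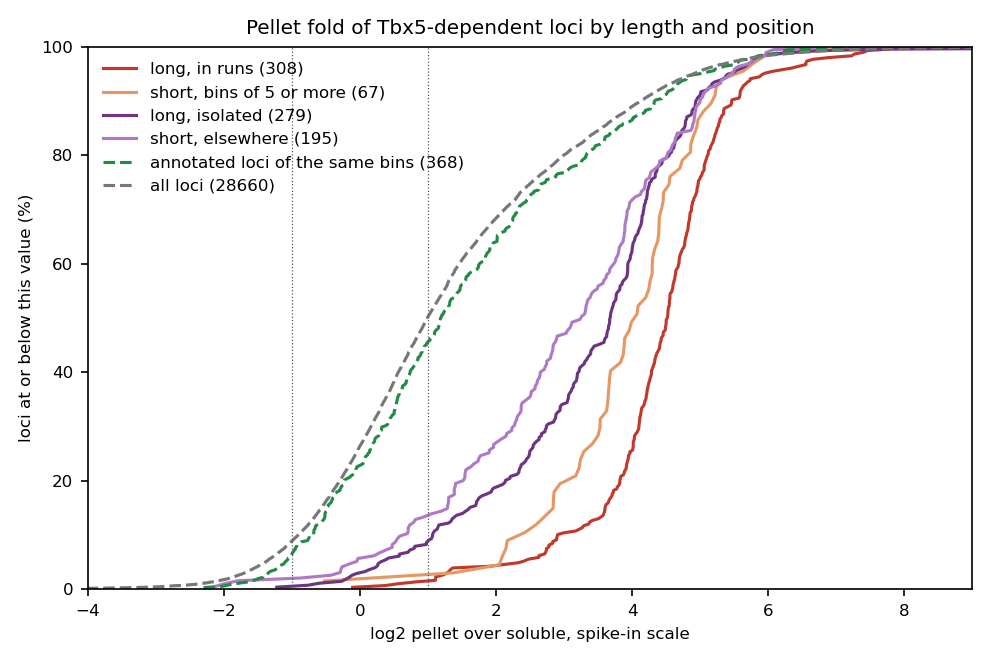
Lines give, for each class of loci, the percentage at or below the log2 pellet over soluble fold on the x axis (spike-in scale), with the number of loci in brackets; dotted lines mark 2-fold, and 1 of the 308 lies beyond the right edge. The line of long loci in runs lies furthest right, with a median of 4.52, followed by short loci of bins with at least 5 loci at 4.07, long isolated loci at 3.68 and short loci elsewhere at 3.26. The dashed lines of other loci of the same bins (1.19) and of all loci (0.99) lie far to the left.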

How the data were processed

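Nuclear RNA of HL-1 cells was sequenced from a chromatin pellet and a soluble nuclear extract, with ribosomal RNA depleted and strand-marked libraries made, per the labels' protocols. The submitters' processing notes name the build mm10 with HISAT2 and SAMtools, with Cufflinks and Cuffdiff, and with bedtools, but give neither versions nor settings. The authors deposited 1 FPKM value per fraction. They also deposited a spike-in corrected pellet signal and a total signal, their ratio as a fold of chromatin enrichment, and the log10 of total and fold, per the file headers. The corrected signal equals pellet FPKM times 3.37 to within 0.391% at every locus.

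Repeated lines of an identifier were dropped (30687 lines, 28742 identifiers, 82 of them spike-ins). Folds were recomputed with pandas 2.3.3 from the FPKM columns, with no level filter and no pseudocount, since no value was 0. Starts count from 0 in the table, and 1 was added. Gene spans and promoter windows are from RefSeq on GRCm38.p6, the same assembly as mm10. Because the columns are pooled, counts, medians and ranges replaced the limma fit planned for replicate columns. Simulated folds were made and read back with the same formula, so their return shows only that the arithmetic was right. A direct recount of the locus rule gave the same loci.

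The loci, the gene list and the rules for naming were chosen with earlier results of these data known. Described one by one were the 8 runs with most members (9 with a tie), and the 5 loci with the highest total. To these were added the 5 largest and 5 smallest folds among loci whose mean reached 0.5 FPKM, the 3 with the highest total of the 8 that tie as longest, the 2 on each side of the length limit, and list genes within 100 kb. Alternatives were the FPKM scale, another spike-in factor, level filters, other lengths, bins and linkages, a pseudocount, and subsets of loci or runs.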

Additional observations from a re-analysis of the deposited data

How the results depend on the processing

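No paired analysis was possible because the deposited table gives 1 pooled value per fraction, and for the same reason no library could be left out. Under 16 alternatives no result reversed. Of 304 loci higher in the pellet, fewer entered with 1 value per run (30 of 30), a bin minimum of 10 loci (196 of 199), a mean of at least 0.1 FPKM (146 of 147) or 0.5 FPKM (48 of 48), a soluble value of at least 0.1 FPKM (63 of 64), and outside RefSeq spans (132 of 132). Loci with an interval of their own, an alternative chosen after seeing the data, gave 197 of 197. The count of lower loci went from 0 to 3 on the FPKM scale, and to 1 with bin edges moved by 0.5 Mb or a bin minimum of 3. The median log2 fold of 4.52 became 2.77 on the FPKM scale and 3.65 with a pseudocount of 0.01 FPKM, and lay between 4.25 and 4.64 under the other 14. The excess of 0.84 over long isolated loci shrank to 0.34 at a mean of at least 0.5 FPKM, and the cause was not tested. Under the other 15 alternatives it lay between 0.60 and 1.11. The 0.96 for loci with an interval of their own is an unlike comparison, since the isolated loci were not restricted in that way. The excess of 3.33 over other loci of the same bins became 2.93 with a bin minimum of 10, 3.78 and 3.80 at a mean of at least 0.1 and 0.5 FPKM, and 2.69 with the pseudocount. It lay between 3.07 and 3.57 under the other 12. The FPKM scale and the other spike-in factor multiply all pellet values alike, so neither excess could change under them. A shift of a median was set against 0.37, the spike-in SD between 0.05 and 0.5 FPKM, a measure chosen after seeing the data.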
